A study of Mus musculus with 22 samples.

Results

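Among the cytosines measured, the shares of 5-hydroxymethylcytosine (5hmC), 5-methylcytosine (5mC) and neither mark were described along the autosomes of the mouse olfactory bulb. The bulb is the first relay of the olfactory pathway in the forebrain. The regions were the 1 Mb bins of chromosomes 1 to 19 that held a 5hmC level from all 3 TAB-seq libraries and a 5mC level from both oxBS-seq libraries, with the 5mC levels of 100 kb bins averaged into the same 1 Mb bins after levels of 0 or 1 had been dropped. These were 2413 of the 2641 bins deposited, and the 5 libraries were 5 of the 22 samples of the series. The unmodified rest of a bin was 1 minus its mean 5hmC level minus its mean 5mC level, so it also takes up any error of the other quantities. The choice of bins used no measured difference.

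The series compared cortex, olfactory bulb and cerebellum of untreated female C57BL/6 mice at 8 weeks of age, and the question addressed here is how the oxidized and the unoxidized form of the modified cytosine share the genome in the olfactory bulb. The tissue was the whole bulb, so each level is a mean over neurons and glia. The replicates came from independent mice, and the sources do not say whether a TAB-seq and an oxBS-seq library came from the same animal. The labelled tissue could not be checked against marker RNA, since the RNA-seq samples were not analysed here. Which cytosines enter the level of a bin (CpG sites alone or others too) and how they were combined is not given in the sources used here, and coverage was not used here, so the depth is unknown and the error is the SD between libraries.

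DNMT enzymes write 5mC, mainly where a cytosine precedes a guanine (CpG). TET enzymes oxidize 5mC to 5hmC, which is abundant in neurons and is known to lie in the bodies of their genes. In oxBS-seq 5hmC is first oxidized by perruthenate so that bisulfite converts it and only 5mC still reads as cytosine. In TAB-seq a glucose group first protects 5hmC, TET then oxidizes the 5mC, and only 5hmC still reads as cytosine.

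The extreme bins differed in CpG density and repeat share, and 1 stretch of each of 4 bins is given as an example of their sequence. The levels belong to whole bins, and none was measured on a stretch, so each heading ranks the bin. Each stretch is the 250 bases nearest to the middle of its bin whose CpG count is that of the bin on average, on the plus strand of GRCm38 (RefSeq), with CpG in capitals. None overlaps an exon of the GENCODE annotation.
Highest 5hmC, chr5:132500001-132500250, intron of Auts2: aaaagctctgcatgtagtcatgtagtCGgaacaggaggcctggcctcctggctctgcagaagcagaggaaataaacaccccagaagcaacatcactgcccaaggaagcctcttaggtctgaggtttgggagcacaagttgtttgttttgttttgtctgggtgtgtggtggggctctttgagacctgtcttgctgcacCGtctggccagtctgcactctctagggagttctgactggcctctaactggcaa
Lowest 5hmC, chr7:23499501-23499750, between genes of a vomeronasal receptor cluster: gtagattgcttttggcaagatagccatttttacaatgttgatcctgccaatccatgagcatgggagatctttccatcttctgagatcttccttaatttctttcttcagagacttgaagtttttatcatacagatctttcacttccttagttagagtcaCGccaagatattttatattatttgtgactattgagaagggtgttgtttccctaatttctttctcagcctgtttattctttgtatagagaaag
Highest unmodified rest, chr10:80499751-80500000, intron of Onecut3: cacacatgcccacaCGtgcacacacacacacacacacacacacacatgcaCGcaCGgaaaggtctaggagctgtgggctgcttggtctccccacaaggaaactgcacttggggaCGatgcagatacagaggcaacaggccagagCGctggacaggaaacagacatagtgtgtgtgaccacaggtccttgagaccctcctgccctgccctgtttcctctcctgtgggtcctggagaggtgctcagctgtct
Lowest unmodified rest, chr16:24499251-24499500, intron of Lpp: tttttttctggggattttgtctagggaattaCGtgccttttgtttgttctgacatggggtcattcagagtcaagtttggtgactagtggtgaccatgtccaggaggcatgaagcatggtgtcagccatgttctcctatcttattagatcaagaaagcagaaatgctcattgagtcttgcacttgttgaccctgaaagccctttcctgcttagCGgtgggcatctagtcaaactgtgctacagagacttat
These bins held on average 8.29, 5.75, 20.05 and 8.12 CpG sites per kb in the order listed, and the stretches 2, 1, 5 and 2 sites. The stretch from the bin of lowest 5hmC was 100% repeat-masked, against 12.4% of the Auts2 stretch, 32.4% of the Onecut3 stretch and 5.60% of the Lpp stretch. The whole bins were less far apart, with repeat shares of 56.1% for the bin of lowest 5hmC, 28.3% for the Auts2 bin, 23.7% for the Onecut3 bin and 19.8% for the Lpp bin.

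Over the autosomes, most of the signal of the bulb at the cytosines measured was 5mC, and 5hmC and the unmodified rest took similar shares. The mean 5hmC level was 0.147, 0.155 and 0.148 in TAB-seq replicates 1, 2 and 3, and the mean 5mC level was 0.707 and 0.703 in oxBS-seq replicates 1 and 2. TAB-seq replicate 2 was the highest on 19 of 19 autosomes and oxBS-seq replicate 1 on 19 of 19. The means were thus 0.150 ± 0.00440 (SD, n = 3) for 5hmC and 0.705 ± 0.00294 (SD, n = 2) for 5mC, which left an unmodified rest of 0.145 ± 0.00529. Of the modified cytosine, 17.6% ± 0.428 was 5hmC. In cortex the same means were 0.169 for 5hmC, 0.674 for 5mC and 0.157 for the rest, and in cerebellum 0.0987, 0.732 and 0.169. The 168 bins of the X chromosome, which were left out of everything else, had a 5hmC level of 0.0646 ± 0.00328 (n = 3), a 5mC level of 0.739 ± 0.00147 (n = 2) and a rest of 0.196.

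The bins differed from each other far more than the libraries did. Across bins, 5hmC ranged from 0.0129 to 0.288 with an SD of 0.0450, 5mC from 0.470 to 0.845 with an SD of 0.0565, and the rest from 0.0547 to 0.397 with an SD of 0.0476. The median SD between the libraries of a bin was 0.00497 for 5hmC and 0.00409 for 5mC, or 0.00226 and 0.00380 once each library was centred on its own mean. Pearson's r across bins between libraries of the bulb was at least 0.995 for TAB-seq and 0.992 for oxBS-seq, against 0.922 to 0.931 with cortex and 0.753 to 0.763 with cerebellum for TAB-seq. The bins of a library share that library and its processing, and the same bin has the same base composition in every library, so bins are not replicates.

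5hmC and 5mC ran against each other along the autosomes, but incompletely. Their correlation across the 2413 bins was r = -0.581, and the straight line of 5mC on 5hmC had a slope of -0.729. That slope depends on the scatter and on fitting 5mC on 5hmC and not the reverse, so it is no rate of exchange between the marks. The rest fell only weakly with 5hmC (r = -0.256) and more strongly with 5mC (r = -0.638), and it is computed from both. Against sequence, 5hmC followed the repeat-masked share of the bin most closely (r = -0.774), while 5mC followed CpG density (r = -0.793). Over all bins, the rest rose with CpG density (r = 0.527) and showed almost no relation to repeats (r = 0.0166). This differed between the classes of gene cover defined below. In the 512 gene-poor bins the rest rose with repeats (r = 0.364) and only weakly with CpG density (r = 0.173). In the 352 genic bins r was 0.00211 with repeats and 0.652 with CpG density.

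**Figure D1:**
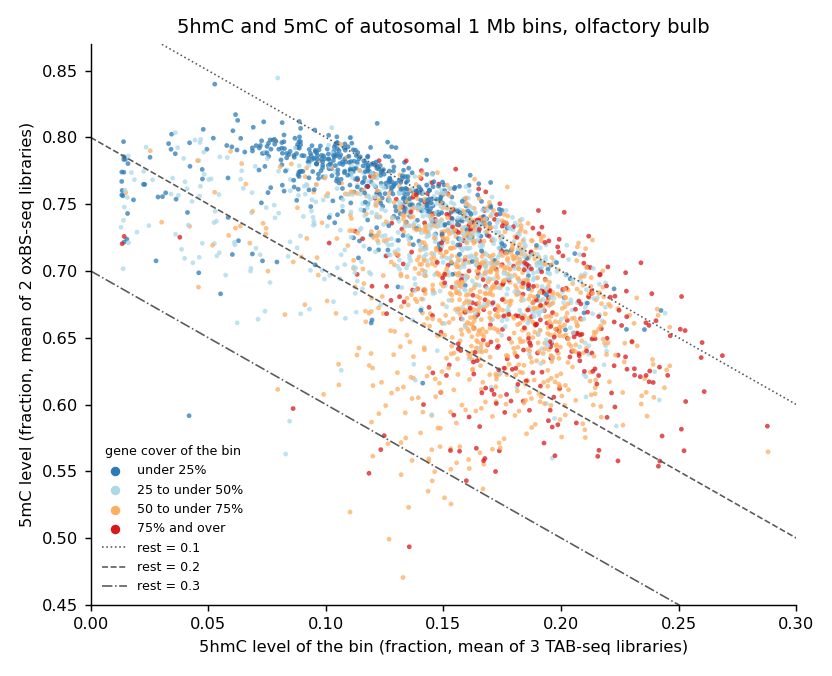
Each point is 1 of 2413 autosomal 1 Mb bins, with its 5hmC level (fraction, mean of 3 libraries) on the x axis, its 5mC level (fraction, mean of 2 libraries) on the y axis and its colour by the percent of the bin covered by genes; the lines join bins with an equal unmodified rest. Gene-poor bins crowd at the upper left and the points run downwards as 5hmC rises (r = -0.581).

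Against the mean of the libraries, 5hmC was above in 1436 bins (59.5% of those tested) and below in 821 (34.0%), in limma's test on log2(level/(1 - level)) with Benjamini-Hochberg adjusted p under 0.05. With centring on the median in place of the mean, which moved the zero by 0.16 on that log2 scale, these counts became 1109 above and 1123 below, so the excess of bins above the mean depends on the centring. 5mC was above its mean in 1133 bins (47.0%) and below in 1033 (42.8%). The sum of both marks was above its mean in 1294 bins (53.6%) and below in 835 (34.6%), or 1037 and 1030 with centring on the median. The opposed calls were the commonest combination, with 5hmC above and 5mC below in 877 bins (36.3%) and the reverse in 651 (27.0%). In 379 bins both marks were above their means and the rest averaged 0.101, whereas in 116 bins both were below and the rest averaged 0.239. For 5hmC and 5mC each alone, that mean is taken over the log2 values and is not the mean level. With fractions in place of log2 values, 5hmC was above in 1254 bins and below in 1016, and 5mC in 1169 and 987. Most bins pass the test at this spread between libraries. A call thus says only on which side of the mean a bin lies, on the scale tested.

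Gene content sorted the bins for both marks. In bins covered by genes to 25% or less (512 bins, gene-poor), the 5hmC level was 0.112, 0.121 and 0.116 in the 3 TAB-seq libraries, and in bins covered to 75% or more (352 bins, genic) it was 0.178, 0.185 and 0.177. All libraries were higher in genic bins, by 0.0640 ± 0.00240 (SD, n = 3). The 5mC level was 0.759 and 0.760 in gene-poor bins and 0.675 and 0.668 in genic bins, a difference of -0.0882 ± 0.00585 (SD, n = 2) that was negative in both libraries. With all bins kept and levels limited to just inside 0 and 1, so that bins listed at 0 enter as almost free of 5mC, the 5mC difference was -0.0115. The 2-sided exact permutation test over the signs gave p = 0.25 for 5hmC and p = 0.5 for 5mC, the smallest that 3 and 2 libraries allow. The 5hmC share of the modified cytosine was 13.3% ± 0.444 in gene-poor and 21.2% ± 0.443 in genic bins.

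The rest did not follow the same steps. From the least to the most gene-covered class (under 25%, 25 to 50%, 50 to 75% and over 75%, with 512, 636, 913 and 352 bins), 5hmC climbed through 0.116, 0.142, 0.164 and 0.180, and 5mC fell through 0.760, 0.717, 0.679 and 0.672. The rest was 0.124, 0.141, 0.157 and 0.148, highest in the class below the most gene-covered, although the last values differ by little more than their SDs of 0.00644 and 0.00678. Genic minus gene-poor, the rest differed by 0.0242 ± 0.00633, and by only 0.00260 when genic meant at least 95% and gene-poor at most 5% covered. With all bins kept, bins listed at 0 included, it turned to -0.0640, so its direction depends on leaving those bins out. Of the 2641 bins deposited, 60 were at 0 or 1 in a TAB-seq library. A bin listed at 0 in both assays then counts as nearly all rest. Whether a 0 stands for a bin without reads was not tested. CpG density moved with this comparison: among genic bins, those at or below the median CpG density of all bins (109 bins) had a rest of 0.113 and those above it (243 bins) a rest of 0.164. 5hmC was 0.172 and 0.184 in the same bins, and 5mC 0.715 and 0.652. Repeats moved with it as well, since 5hmC was 0.190 in genic bins with a repeat share at or below the median (259 bins) and 0.153 in those above it (93 bins), and 0.164 (70 bins) and 0.109 (442 bins) in the gene-poor ones. The part of CpG density and repeats in the effect of gene cover was not tested.

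**Figure D2:**
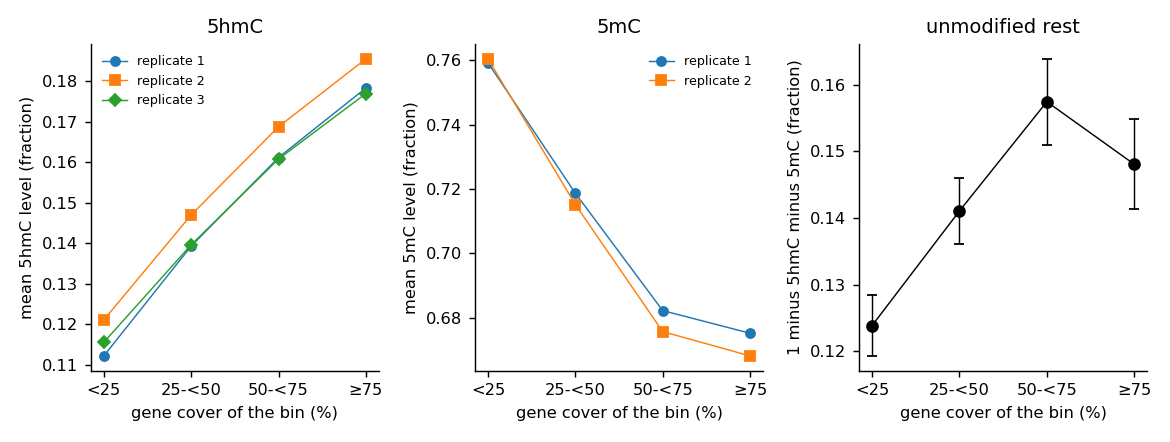
Mean 5hmC level by TAB-seq library, mean 5mC level by oxBS-seq library and unmodified rest (1 minus both means, error bars SD), all as fractions, over the bins of each class of gene cover. 5hmC rises from 0.116 to 0.180 and 5mC falls from 0.760 to 0.672 in each library, while the rest is highest at 0.157 in the class from 50 to 75%.

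The gap between genic and gene-poor bins was not shown to be particular to the olfactory bulb. For 5hmC it was 0.0640 in the bulb, 0.0614 ± 0.00248 (n = 3) in cortex and 0.0716 ± 0.00143 (n = 3) in cerebellum. The 2-sided exact permutation test over libraries gave p = 0.3 against cortex and p = 0.1 against cerebellum, the latter the smallest possible, and p = 0.444 and p = 0.4 after adjustment over the 4 comparisons. For 5mC the gap was -0.0882 in the bulb, -0.0851 in cortex and -0.0800 in cerebellum, with exact permutation p = 0.5 and p = 0.33 (adjusted 0.5 and 0.444). Divided by the mean level of each library, the 5hmC gap was 42.6% of the mean in the bulb, 36.4% in cortex and 72.6% in cerebellum, with exact permutation p = 0.1 for each pair. With limits of 95% and 5% for gene cover, the 5hmC gap of the bulb exceeded that of cortex by 0.00738 (exact permutation p = 0.1) and differed from that of cerebellum by -5.03e-05 (exact permutation p = 1), so both sizes depend on the limits. None of these comparisons had enough libraries to pass a threshold of 0.05.

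The 19 autosomes spanned a narrower range than the bins. 5hmC was highest on chromosome 18, at 0.161, 0.170 and 0.161 in the 3 libraries (mean 0.164), followed by chromosome 11 (0.160) and chromosome 16 (0.159). It was lowest on chromosome 7, at 0.127 ± 0.00396 (SD, n = 3), with chromosome 4 next at 0.144. Along this order, 3 of the 18 neighbouring pairs differed by less than the SD of their difference within libraries, and in 16 pairs all 3 libraries gave the same order. 5mC ran from 0.722 on chromosome 3 to 0.672 on chromosome 11, and again 3 of 18 neighbouring pairs were within that SD. The rest was highest on chromosome 7 (0.176 ± 0.00499) and chromosome 11 (0.169 ± 0.00687), and lowest on chromosome 16 (0.128).

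Chromosomes 7 and 11 reached their high rest with different marks. Chromosome 11 had the lowest 5mC of all autosomes beside the second highest 5hmC, and held 9.80 CpG sites per kb against 8.63 on chromosome 7. Chromosome 7 had an ordinary 5mC of 0.698 beside the lowest 5hmC. It carried 24 bins with 5 or more olfactory or vomeronasal receptor genes, and 15 of its 143 bins had a 5hmC level under 0.03. Without the receptor bins its 5hmC was 0.143, still the lowest of the 19, and its rest 0.168. Chromosome 7 was also the lowest in cortex (0.146) and cerebellum (0.0878). Over the 19 autosomes, described with no test, 5mC went with gene cover (r = -0.766). 5hmC over all bins did not (r = 0.0238), but r was 0.312 for 5hmC without the receptor bins. With the repeat share, 5hmC over all bins had r = -0.610.

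**Figure D3:**
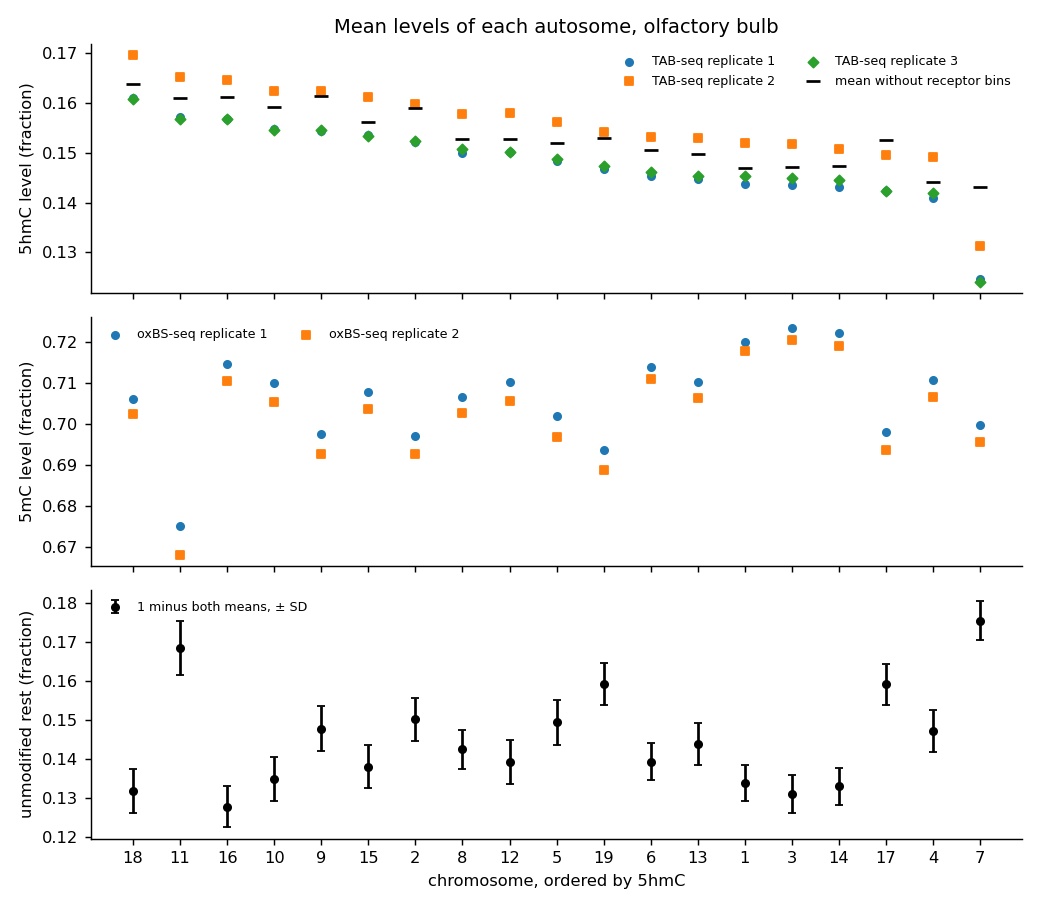
Mean 5hmC level (per TAB-seq library, with the mean without receptor bins as a dash), 5mC level (per oxBS-seq library) and unmodified rest (mean, error bars SD) of each autosome, as fractions, ordered by 5hmC. Chromosome 7 stands lowest for 5hmC at 0.127 and highest for the rest at 0.176, and chromosome 11 is lowest for 5mC at 0.672.

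The bins of highest 5hmC lay in long genes, most of them known from neurons. They were chosen by their mean 5hmC, so what follows describes them without a test. The highest bin, chr5:132000001-133000000, lies in Auts2 (ENSMUSG00000029673.17), a nuclear regulator of neuronal development, and had 5hmC levels of 0.285, 0.296 and 0.282 and 5mC levels of 0.571 and 0.558. The neighbouring bin at chr5:131000001-132000000, which holds more of Auts2 and Galnt17, was the fifth with 0.260. Nrxn3, which encodes a presynaptic adhesion protein, covers chr12:89000001-90000000 fully, and that bin had 0.289, 0.291 and 0.283 beside 5mC levels of 0.584 and 0.584. The rest was 0.147 in the Auts2 bin and 0.128 in the Nrxn3 bin, on either side of the autosomal mean of 0.145.
The third was chr2:135000001-136000000 with the phospholipase genes Plcb1 and Plcb4 (0.269), and the fourth chr9:29000001-30000000 in Ntm, a neuronal adhesion gene (0.261). The first bin outside the list, with Tenm4, had 0.260. By the 5hmC share of the modified cytosine, Auts2 (33.8%) and Nrxn3 (33.0%) led again, followed by the bins of Dlgap1, a postsynaptic scaffold gene (30.9%), of Msra and Kif13b (30.4%) and of Celf2 (30.3%). The same Auts2 bin had 0.251 in cortex, the third highest there, and 0.217 in cerebellum, the eighth. The Nrxn3 bin ranked 204 in cortex (0.214) and 238 in cerebellum (0.155).

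Some bins held much 5hmC for their gene content. Against the straight line of 5hmC on gene cover, the Auts2 bin was highest again, 0.132 above the line, since genes cover only 55.0% of it. Next came the adjoining bins chr18:55000001-56000000, with no protein-coding gene, and chr18:54000001-55000000 with Zfp608, at 0.124 and 0.107 above the line, and chr5:51000001-52000000 with Ppargc1a, a transcriptional coactivator of mitochondrial genes, at 0.104. Their 5hmC levels were 0.242, 0.235 and 0.223.

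At the other end, 5hmC almost vanished from a small set of bins rich in gene clusters. The 5 lowest bins, again chosen by this value, were chr7:23000001-24000000, chr7:33000001-34000000, chr7:22000001-23000000, chr7:21000001-22000000 and chr4:113000001-114000000, with means from 0.0129 to 0.0134, and the next bin also had 0.0134. The first had 0.0113, 0.0155 and 0.0119 in the 3 libraries. Those on chromosome 7 hold 13 to 18 genes of vomeronasal receptors, which detect pheromones in the vomeronasal organ, or 12 genes of the secretoglobin family (Scgb), small secreted proteins. The bin on chromosome 4 holds Skint5 and Skint6, of a family known from skin and thymus. Their 5mC was not low, at 0.720 to 0.774, and their rest was 0.213 to 0.266. Conversion rates per library were not used here, so the level that TAB-seq gives without any 5hmC is not known. Without TAB-seq replicate 3, 3 of these 5 bins were still among the 5 lowest.

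The distribution of 5hmC had a separate low edge, with 29 bins between 0.01 and 0.02, 10 between 0.02 and 0.03 and 18 between 0.03 and 0.04. A limit of 0.03, set after this was seen, took in 39 bins in 24 runs on 11 chromosomes, the longest run of 4 bins. Among the gene families in them were vomeronasal, olfactory and taste (Tas2r) receptors, Scgb, Skint, the natural killer receptors Klra, cytochrome P450 genes (Cyp2) and zinc finger genes. The highest of them had 0.0286 and the lowest bin outside had 0.0302. Receptor bins were 16 of these 39 and 65 of the other 2374. Over the 39 bins 5hmC was 0.0156, 0.0197 and 0.0171 in the 3 libraries and 5mC 0.755 and 0.759. The rest was 0.226 (0.184 to 0.285 over bins), against 0.143 in the other bins and 0.127 in the 1418 others of the same range of CpG density. Those 1418 bins had 5hmC of 0.143 and 5mC of 0.730, so the rest differed from them by more than 5mC did. The same 39 bins had 0.0264 in cortex and 0.0167 in cerebellum. Repeats made up 51.7% of them against 33.2% of the other bins, and reads had been kept only where they mapped uniquely. The part of repeats and mapping in these levels was not tested.

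**Figure D4:**
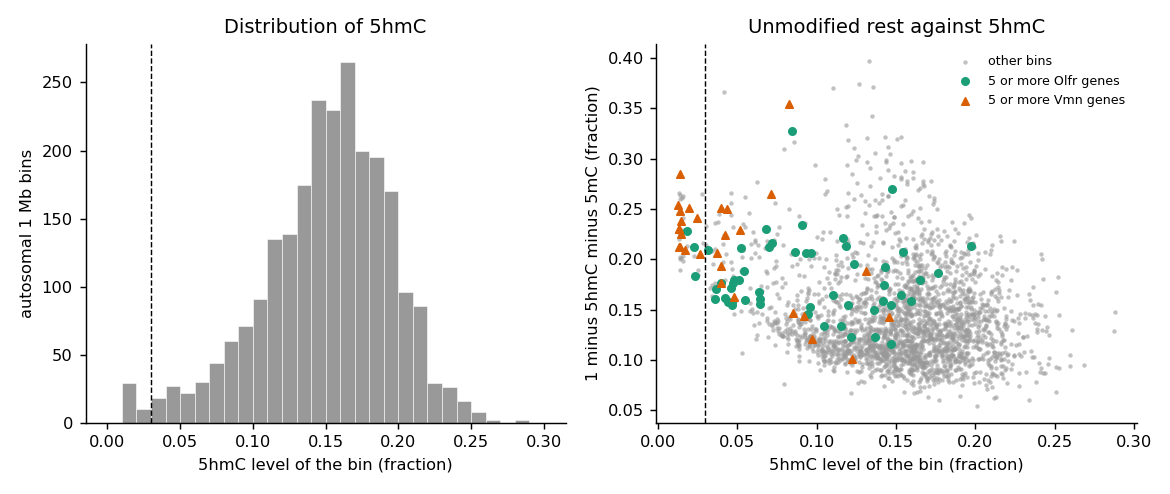
Left, the number of autosomal bins by 5hmC level (fraction, steps of 0.01), with the limit of 0.03 as a dashed line; right, the unmodified rest (fraction) against 5hmC for every bin, with bins of 5 or more olfactory (Olfr) or vomeronasal (Vmn) receptor genes marked. A small peak of 29 bins stands between 0.01 and 0.02, and the 39 bins under the limit have rests from 0.184 to 0.285.

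Receptor gene clusters as a whole were poor in 5hmC. In the 53 bins with 5 or more olfactory receptor genes, which are used by the sensory neurons that project to the bulb, the median 5hmC was 0.0910, the median 5mC 0.738 and the median rest 0.176, against 0.156, 0.711 and 0.133 over all 2413 bins. 5hmC was below the mean in 41 of them and above in 9 (background 34.0% and 59.5%). In the 29 bins with vomeronasal receptor genes the median 5hmC was 0.0395 and the median rest 0.224, and 28 were below the mean and 0 above in limma's test. 5mC was above its mean in 31 of the 53 and 22 of the 29 (background 47.0%).

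The unmodified rest was highest in CpG-dense, gene-dense bins. The bin chr10:80000001-81000000, with Gng7, Sbno2 and Dot1l among its genes, had a rest of 0.397, 5mC levels of 0.479 and 0.461 and a 5hmC level of 0.133 ± 0.00591. It also had the lowest 5mC of all and 20.05 CpG sites per kb. It was followed by chr11:69000001-70000000 with Dnah2, Chd3 and Polr2a (0.374), chr8:70000001-71000000 with Crtc1, Ell and Sugp2 (0.371) and chr11:96000001-97000000 with 10 Hoxb genes, which pattern the body axis (0.370). The fifth, at the end of chromosome 13 (0.367), rested on only 4 bins of 100 kb, and the next bin was chr13:23000001-24000000 with 31 histone and 12 vomeronasal receptor genes (0.354). Among the bins of lowest 5mC was also chr15:102000001-103000000 with 8 Hoxc genes, where 5mC was 0.523 and the 100 kb bins ran from 0.0794 to 0.745.

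A high rest was found with either mark low. Of the 121 bins with the highest 5% of the rest (0.237 or more), 99 had a 5hmC level of at least 0.06, with on average 13.7 CpG sites per kb, 65.4% gene cover, 5hmC of 0.138 and 5mC of 0.583. The other 22 had less 5hmC, with 6.20 CpG sites per kb, 34.5% gene cover, 5hmC of 0.0287 and 5mC of 0.711. Both limits were set after the values were seen, and the split uses 5hmC itself.

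The 5 bins of lowest rest were covered by genes to 55.6% or more, and 4 of them held protein-coding genes. The bin chr16:24000001-25000000 in Lpp, a focal adhesion gene, had 5hmC of 0.199, 0.206 and 0.199 and 5mC of 0.746 and 0.742, which left 0.0547 ± 0.00480. Next came chr1:68000001-69000000 in Erbb4, a neuregulin receptor of interneurons (0.0599), chr15:62000001-63000000 without a protein-coding gene (0.0599), and the bins with Exoc4 (0.0622) and Plxna4 (0.0635) on chromosome 6. In contrast to the Auts2 bin, these 5 bins had both marks over their autosomal means, though 5mC in the Erbb4 bin (0.706) by less than the SD between libraries. Without oxBS-seq replicate 1, 3 of the 5 were still among the 5 lowest. The highest 5mC levels were in fragments at chromosome ends with 2 and 1 bins of 100 kb (0.845 and 0.840). After these came chr13:87000001-88000000 (0.817), which holds no protein-coding gene, chr18:90000001-90702639 (0.813, from 7 bins of 100 kb) and chr3:6000001-7000000 (0.812).

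Lists of genes tied to cells of the bulb were read through the bin that holds the middle of each gene, so a value belongs to 1 Mb and not to the gene alone. The lists were chosen with earlier results of these data known. The list of bulb interneurons, the GABA-releasing granule and periglomerular cells that make up most bulb neurons, fell in 16 bins with a median 5hmC of 0.190, 5mC of 0.646 and rest of 0.176. 5hmC was above its mean in 14 (background 59.5%, and 74.3% of all bins with 50 to 75% gene cover) and below in 2 (background 34.0%). 5mC was below its mean in 15 (background 42.8%, and 62.9% of all bins with that gene cover). Meis2, a transcription factor of these cells, lay in the richest of them, with 5hmC of 0.242, 0.245 and 0.232 and 5mC of 0.606 and 0.605. Tshz1 (0.220 and 0.590) and the shared bin of Dlx1 and Dlx2 (0.210 and 0.581), also transcription factors of the lineage, had the next highest 5hmC. The exceptions were Gad2 (0.136), one of the enzymes of GABA synthesis, and Th (0.113), the rate-limiting enzyme of dopamine synthesis.

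Mitral and tufted cells are the glutamate-releasing output neurons of the bulb. Their 11 bins had a median 5hmC of 0.151, against 0.156 over all autosomal bins. By limma's test 7 were above and 4 below the mean (background 59.5% and 34.0%). Cdhr1 lay lowest (0.0968) and Ntng1 highest (0.191). The 14 bins of glia and ensheathing cell genes had a median of 0.158, with 10 above and 3 below (background 59.5% and 34.0%), from Mog at 0.0524 to Slc1a2, an astrocyte glutamate transporter, at 0.227. Genes of non-neural tissues (16 bins), which should be silent in the bulb, had a median of 0.160 with 11 above and 4 below (background 59.5% and 34.0%). The beta-globin bin of Hbb-bs, within a cluster of olfactory receptors, was the lowest at 0.0370. The 15 bins of genes for cytosine methylation and oxidation had a median 5hmC of 0.148, with 8 above and 4 below (background 59.5% and 34.0%) and the highest median rest of these lists, 0.180. The bins of Tet1 (0.141), Tet2 (0.139) and Tet3 (0.144) passed the test in neither direction for 5hmC. Median gene cover was 66.6% in the mitral and tufted, 59.5% in the glia, 50.2% in the non-neural and 68.0% in the enzyme list. Of all bins with 50 to 75% gene cover, 74.3% were above the mean and 19.4% below. Above the autosomal median of 5hmC lay 4 of the 11 mitral and tufted, 9 of the 14 glia, 11 of the 16 non-neural and 4 of the 15 enzyme bins.

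The 19 bins of long synaptic and adhesion genes had less of the rest than the interneuron bins. Their median 5hmC was nearly the same, 0.192, but their median 5mC was 0.733 and their median rest 0.0930. The sum of both marks was above its mean in 17 of 19 (background 53.6%) and in 2 of the 16 interneuron bins. The highest 5hmC in the list was 0.288 (Nrxn3), followed by 0.253 (Dlg2, a postsynaptic scaffold), while Ptprd, a synaptic receptor phosphatase, had 0.133 and was below the mean. Median CpG density was 5.51 per kb in these bins and 9.76 in the interneuron bins. Its part in the difference was not tested.

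**Figure D5:**
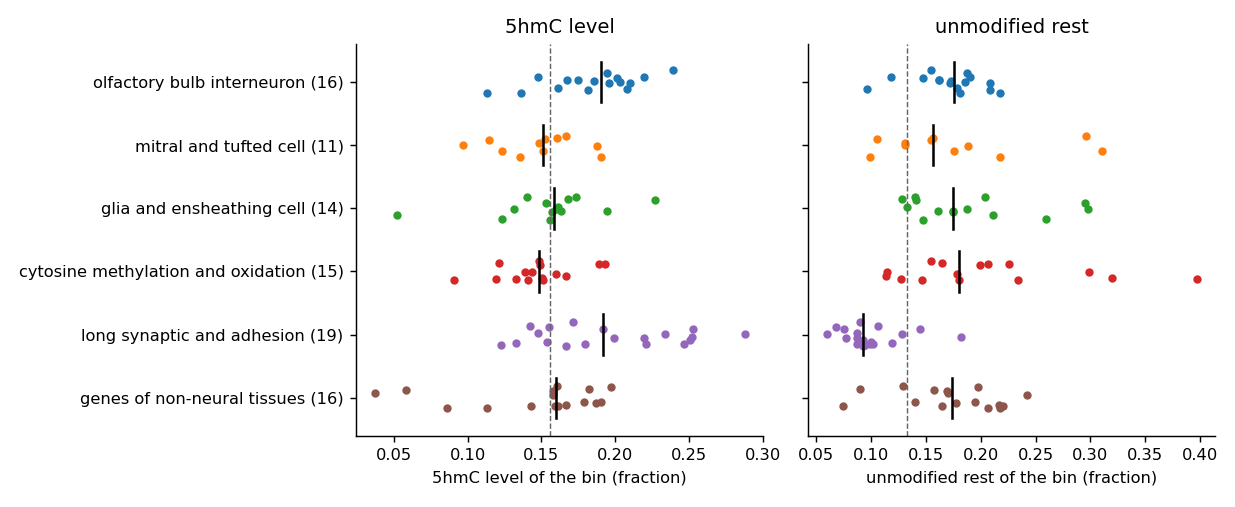
5hmC level (left) and unmodified rest (right), as fractions, of the 1 Mb bins that hold the genes of each list, with the number of bins in brackets, 1 point per bin, a bar at the median of the list and a dashed line at the median of all autosomal bins (0.156 and 0.133). Interneuron bins and bins of long synaptic genes have like 5hmC medians, 0.190 and 0.192, but rests of 0.176 and 0.0930.

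Relative to the mean of each library, the interneuron bins also differed between bulb and cortex. This list was chosen with earlier results of these data known, so the counts and p-values describe its bins and are no independent test. On the log2(level/(1 - level)) scale, 5hmC was higher in the bulb in 14 of the 16 (background 36.6%) and lower in 1 (background 34.2%), while 5mC was lower in 11 (background 23.6%) and higher in 1 (background 25.7%). The Meis2 bin was singled out as the richest of the list in 5hmC. Its difference was 0.63 (SE 0.03, limma adjusted p = 5.74e-08) for 5hmC and -0.79 (SE 0.03, adjusted p = 6.82e-11) for 5mC. The levels themselves were 0.239 in the bulb and 0.194 in cortex for 5hmC, and 0.605 and 0.695 for 5mC. Th was the bin that was lower, by -0.16 (SE 0.02, limma adjusted p = 0.000121). Against cerebellum, 5hmC was higher in 10 and lower in 5 of the 16 (background 42.5% and 47.7%), and 5mC was lower in 10 and higher in 4 (background 34.1% and 31.8%). Of the 11 mitral and tufted cell bins, 2 were higher and 6 lower than cortex in 5hmC. Erbb4, in the list of long genes and singled out after its values were seen, had bulb 5hmC levels of 0.236, 0.236 and 0.229 against a cortex mean of 0.164 (difference 0.88, SE 0.04, limma adjusted p = 8.42e-08). In whole tissue, a higher level in each cell of a type and more cells of that type cannot be told apart.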

How the data were processed

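Levels of 5hmC and 5mC were deposited by the authors as fractions between 0 and 1, for 1 Mb bins (TAB-seq) and 100 kb bins (oxBS-seq). Per the labels and methods, reads were mapped with Bismark to mm10 and uniquely mapped reads were used to call sites. Which cytosine context the levels cover and how sites were combined per bin is not given in the sources used here, and coverage was not used here, so depth and counting error are unknown.

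Bins at 0 or 1 were left out, which removed 663 of 26327 bins of 100 kb, and the others were averaged without weights into 1 Mb bins. The SD of the rest is the root of the summed squared SDs of both assays. Gene cover came from GENCODE M21 (all genes), and CpG sites, repeat masking and sequence from RefSeq GRCm38. The test of each bin used limma (version 3.58.1, under R 4.3.3) on log2(level/(1 - level)) centred on each library's mean over autosomal bins, and all 3 tissues' libraries entered the fit. The sum of both marks was tested on centred fractions. The adjusted p (Benjamini-Hochberg) covers all 2413 bins. The calls were tested on simulated data, in which only a small part of the bins was changed and all bins of an assay had the same spread. In the real data most bins were called, so that test does not show how the calls behave there.

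The bins named are the 5 highest and the 5 lowest by 5hmC, 5mC, the rest and the 5hmC share, those farthest from the line of 5mC on 5hmC and of 5hmC on gene cover, and the bins of genes on fixed lists. Up to 3 genes, or a family of at least 5, were named per bin. Members and lists were chosen with earlier results of these data known. The replicate numbers of the labels were not shown to pair TAB-seq with oxBS-seq libraries.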

Additional observations from a re-analysis of the deposited data

Results flagged for a closer look

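Among the 16 interneuron bins, 64 comparisons with cortex and cerebellum were looked at, and in 12 every bulb library lay on one side of its autosomal mean and every library of the other tissue on the other side, with the difference called by limma. The rule was applied to these bins only, so the share of all bins that meet it is not known. Of all bins, limma called 5hmC higher in 36.6% and lower in 34.2% against cortex, and in 42.5% and 47.7% against cerebellum. For 5mC these were 25.7% and 23.6%, and 31.8% and 34.1%. For 5hmC the level minus the library mean was 0.0246 in the bulb and -0.0175 in cortex for Sp8 (limma adjusted p = 2.53e-07), and 0.0108 and -0.0109 for Pax6 (adjusted p = 1.5e-05). Against cerebellum it was 0.0529 and -0.00461 for Gad1 (limma adjusted p = 2.62e-09), and 0.0246 and -0.017 for Sp8 (adjusted p = 1.52e-08). It was 0.0892 and -0.0258 for Meis2 (limma adjusted p = 5.59e-11), and 0.0508 and -0.0196 for the bin of Dlx5 and Dlx6 (adjusted p = 2.25e-10).

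For 5mC the order was the reverse in each case. Against cortex, the bulb and cortex values were -0.0997 and 0.0208 for Meis2 (limma adjusted p = 6.82e-11), -0.0538 and 0.00114 for Dlx5 and Dlx6 (adjusted p = 9.74e-08), and -0.00996 and 0.0381 for Etv1 (adjusted p = 2.87e-07). Against cerebellum they were -0.0229 and 0.0104 for Gad2 (limma adjusted p = 0.000854), -0.0997 and 0.042 for Meis2 (adjusted p = 1.39e-11), and -0.00996 and 0.0281 for Etv1 (adjusted p = 1.88e-06).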

How the results depend on the processing

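Of 157 values of main results under alternatives, 142 were counted as kept, 11 as moved and 4 as reversed. Levels, shares and gaps counted as kept if they held their direction and side of the threshold or moved by less than the spread. Counts of called bins were judged only by the size of their change. The 5hmC counts were scored as kept, although centring on the median moved them from 1436 above and 821 below to 1109 and 1123. That change reversed which side held more bins. The comparisons between tissues could not pass 0.05 with these libraries, so for them keeping the side of the threshold says nothing. A gap between tissues could also shrink and still be counted as kept. The 5hmC gap of bulb minus cerebellum was so counted, although it went from -0.00764 to -5.03e-05 with limits of 95% and 5%. As medians over bins, 5hmC was 0.156, 5mC 0.711 and the rest 0.133. With the X chromosome, 5hmC was 0.145 and its share 17.0%. With 100 kb bins weighted by CpG sites, 5mC was 0.699 and the rest 0.151. With all bins kept and levels limited to just inside 0 and 1, 5mC was 0.688 and the rest 0.165. The genic minus gene-poor rest then reversed to -0.0640, where a bin listed at 0 in both assays counts as nearly all rest. That difference was 0.0125 with protein-coding cover and 0.00260 with limits of 95% and 5%. The 5mC gap of bulb minus cortex reversed to 0.00392 with those limits and to 0.115 in percent of the library mean, and ran from -0.00726 to 0.00102 with 1 library left out, positive without olfactory bulb replicate 2. The causes were not tested.

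The pairing of TAB-seq and oxBS-seq libraries by the labels' replicate numbers was checked by the correlation of their deviations, 0.191 and -0.125, against 0.125 and 0.272 by the numbers in the library names. The deviations of only 2 oxBS-seq libraries are mirror images, so each r has its exact negative with the other library. These values cannot decide between the numberings. With the replicate block the rest was 0.143 and the 5hmC share 17.7%, by the labels' numbers as by the library names. The block moved the counts of called bins by less than 1.5 times, the most for 5mC, to 1107 above and 1004 below.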
